A study of Mus musculus with 3 samples.

Results

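The 10 genes followed were the matrix metalloproteases Mmp8, Mmp9, Mmp12, Mmp14 and Mmp19, the related surface protease Adam8, the metalloprotease inhibitors Timp1 and Timp2, and the inhibitors of other protease classes Slpi and Cst3. They were taken by name, and all 10 were found among the 27998 genes of each of the 3 count tables. The tables hold single-cell RNA counts of sciatic nerve macrophages of the inbred mouse strain C57BL/6. There were 3 libraries, 1 of steady state (uninjured nerve), 1 of day 1 and 1 of day 5 after the nerve had been crushed. No genetic change or drug is named in the labels. The labels name neither the gate used to sort the cells nor the number and age of the animals behind a library. After filtering, 718 steady-state cells, 2793 day 1 cells and 2051 day 5 cells were used.

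Matrix metalloproteases are zinc enzymes that cut collagens, elastin, laminins and other proteins outside the cell, and most are released as inactive precursors. Tissue inhibitors of metalloproteases (TIMPs) bind the active enzymes and block them. After a nerve is crushed, macrophages clear myelin and axon debris from within the nerve, and proteases that open the basement membrane and the blood-nerve barrier, with their inhibitors, are part of that process. Slpi encodes secretory leukocyte protease inhibitor, which blocks serine proteases such as neutrophil elastase, and Cst3 encodes cystatin C, a secreted inhibitor of cysteine cathepsins.

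Their positions in the mouse build GRCm38.p6, by RefSeq's gene table, are Mmp8 at chr9:7558429-7568486 and Mmp12 at chr9:7344397-7360461, Mmp9 at chr2:164940326-164955850, Slpi at chr2:164354070-164356507 and Cst3 at chr2:148871722-148875512, Mmp14 at chr14:54431598-54442456, Mmp19 at chr10:128790910-128800827, Timp1 at chrX:20870166-20874737, Timp2 at chr11:118301061-118355411 and Adam8 at chr7:139978932-139995207. All 10 are annotated as protein-coding. The span of Timp1 overlaps that of Syn1, a gene of neuronal synapses, and that of Mmp19 overlaps Tmem198b. The labels do not say whether reads were assigned by strand, so reads of such partners may be shared, and Syn1 itself had 0, 30 and 13 UMIs in the 3 libraries, against 1, 1302 and 77 for Timp1. A UMI is a tag that counts each captured RNA molecule once.

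RefSeq's promoter table held 8 of the 10 genes, without Mmp9 and Mmp19. The 250 bases before an annotated start are shown, in the direction of the gene, for Timp1 and Timp2, whose levels went opposite ways, and for Slpi and Adam8, which stood high at day 1. The windows are chr2:164356508-164356757 (minus strand) for Slpi, chrX:20869916-20870165 (plus strand) for Timp1, chr11:118355412-118355661 (minus strand) for Timp2 and chr7:139992563-139992812 (minus strand) for Adam8. The Adam8 window belongs to a start that lies 2645 bases inside the span of the gene, whereas the other 3 windows end at the start of the span. Capitals mark matches, on either strand, to ACGTG, the core of the hypoxia response element, or to GGGCGG, the GC box.
Slpi: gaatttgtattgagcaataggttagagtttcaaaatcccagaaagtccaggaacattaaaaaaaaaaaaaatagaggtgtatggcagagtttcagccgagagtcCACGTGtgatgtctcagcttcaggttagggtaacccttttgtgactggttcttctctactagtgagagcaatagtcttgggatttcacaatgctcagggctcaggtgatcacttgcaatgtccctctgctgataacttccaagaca
Timp1: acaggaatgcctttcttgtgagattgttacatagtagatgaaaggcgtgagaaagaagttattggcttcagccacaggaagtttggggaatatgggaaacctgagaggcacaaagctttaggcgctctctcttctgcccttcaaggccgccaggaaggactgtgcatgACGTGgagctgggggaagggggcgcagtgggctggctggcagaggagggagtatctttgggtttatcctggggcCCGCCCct
Timp2: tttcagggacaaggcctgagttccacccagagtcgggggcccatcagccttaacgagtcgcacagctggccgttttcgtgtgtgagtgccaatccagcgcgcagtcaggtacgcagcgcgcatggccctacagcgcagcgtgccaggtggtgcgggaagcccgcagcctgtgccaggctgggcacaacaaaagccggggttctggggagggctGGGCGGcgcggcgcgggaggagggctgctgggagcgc
Adam8: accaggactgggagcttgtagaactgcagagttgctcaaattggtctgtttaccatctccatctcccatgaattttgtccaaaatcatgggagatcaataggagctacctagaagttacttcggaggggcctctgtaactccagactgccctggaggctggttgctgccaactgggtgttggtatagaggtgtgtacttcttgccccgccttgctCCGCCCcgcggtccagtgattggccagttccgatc

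The letters ACGTG occurred in the windows of 3 of the 8 genes, Slpi, Timp1 and Mmp14, and in 16.6% of all 32851 promoter windows of this length. In Slpi the match reads CACGTG, which matches on both strands. GGGCGG occurred in Timp1, Timp2, Adam8, Mmp14 and Cst3, that is 5 of 8 genes, and in 32.7% of all windows. The AP-1 motif TGANTCA was found in 1 gene, Mmp12, at the second of its 2 annotated starts, and in 6.75% of all windows, while TATAAA was in none of the 8 genes and in 12.4% of all windows. These are matches of letters and no measure of binding.

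The 3 libraries held 731, 2796 and 2059 cell barcodes, as many as the labels state, and 1625316, 7963091 and 5500267 UMIs in the cells used, with 2235, 2555 and 2470 UMIs in the median cell. Levels are given as CPM, the UMIs of a gene summed over a library's cells and scaled to a total of 1000000, with an exact 95% Poisson interval. There was 1 library per time point, so no difference could be tested, and every interval covers counting error only and describes these libraries. A gene is said to be higher or lower where the CPM ratio was at least 2-fold and one of the libraries compared reached 10 CPM, and a count of 0 was replaced by 3 counts, which correspond to 1.85, 0.377 and 0.545 CPM in the 3 libraries. Csf1r, the receptor for macrophage colony-stimulating factor, had 765, 239 and 489 CPM. The 12 epineurial macrophage markers were all detected in each library and summed to 15123, 711 and 2861 CPM, while the 8 monocyte markers summed to 274, 2796 and 1110 CPM, with 6, 8 and 8 detected. Retnla alone gave 6773, 84.3 and 1785 CPM of the epineurial sum. The marker sums move with the levels below, and their part in those levels was not tested. Of 12 neutrophil markers 2, 8 and 5 were detected. S100a8 had 0, 238 and 11 UMIs, Lcn2 0, 60 and 0 and Csf3r 17, 146 and 142, while Ngp, Camp and Ly6g were at 0 in all 3 libraries. A library's sum mixes the make-up of its cells with the level per cell, and levels within clusters of like cells are therefore given after the sums.

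At day 1 after crush, 7 of the 10 genes were higher than at steady state and 3 were lower. The higher ones were Slpi, Timp1, Mmp19, Adam8, Mmp14, Mmp8 and Mmp12, and the lower ones Mmp9, Timp2 and Cst3. By the same rule, 16.7% of all 7008 genes tested were higher and 14.8% lower. The median log2 ratio of the 10 genes was 4.35, against 0.12 over all genes tested. With median-of-ratios scaling, 10.8% of all genes were higher and 21.3% lower, and the counts for the 10 genes were again 7 and 3.

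**Figure D1:**
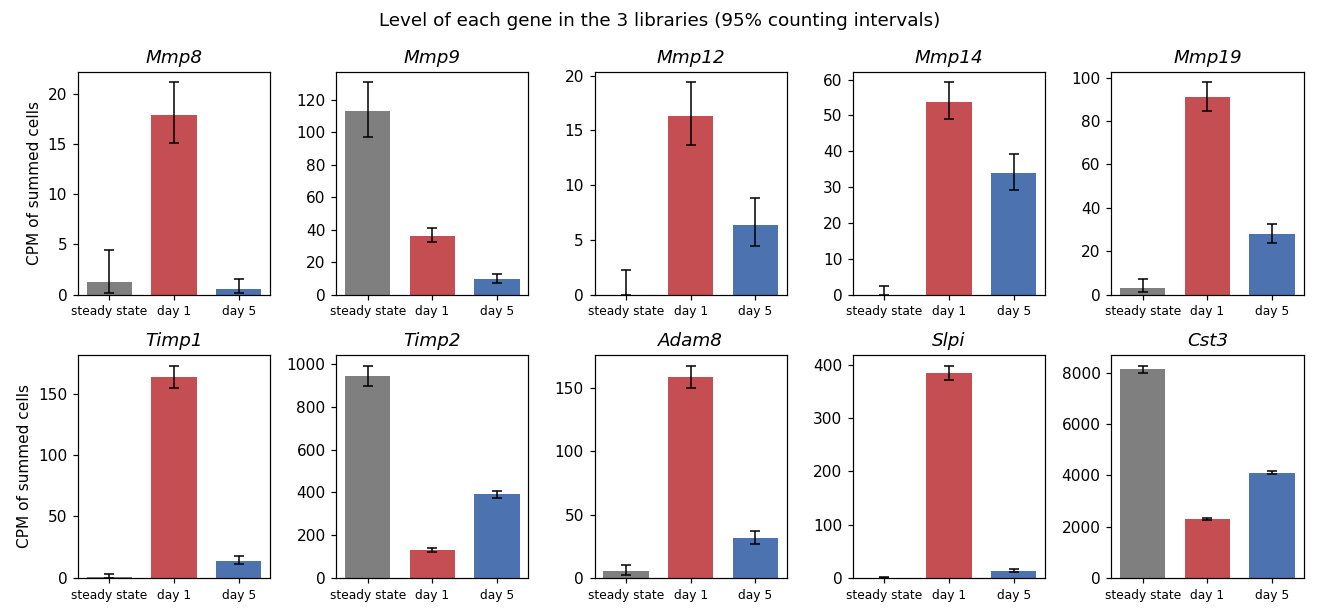
Level of each of the 10 genes in CPM (y axis, each panel with its own scale from 0) in the steady-state, day 1 and day 5 libraries (x axis); bars are the sums over each library's cells and lines their exact 95% Poisson intervals. Mmp9, Timp2 and Cst3 are highest at steady state and the other 7 genes are highest at day 1, for example Slpi at 385 CPM.

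Mmp9, the gelatinase B that cuts denatured collagens and basement membrane collagen, was the one metalloprotease of the set with a sizeable level in uninjured nerve. It had 113 CPM (interval 97.4 to 131) at steady state, 36.4 CPM (32.3 to 40.9) at day 1 and 9.82 CPM (7.38 to 12.8) at day 5, from 184, 290 and 54 UMIs. The 3 intervals do not overlap, and the level at day 1 was 3.11-fold lower than at steady state (2.57 to 3.75). At day 5 it was 11.5-fold lower than at steady state (8.47 to 15.9) and 3.71-fold lower than at day 1 (2.77 to 5.06). The share of cells with an Mmp9 UMI was 13.9%, 6.37% and 1.61% in the 3 libraries, and 7.64%, 2.84% and 0.848% after every cell was thinned to 1000 UMIs. At day 5 a single cell held 13 of the 54 UMIs.

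Mmp9 is also a granule protein of neutrophils. In the steady-state library 16 of 718 cells had a UMI of any of the 12 neutrophil markers, and those cells held 0 of the 184 Mmp9 UMIs. At day 1 the 262 cells with such a UMI held 7.59% of Mmp9 UMIs. The summed level of these markers was 11.7, 60.4 and 29.6 CPM in the 3 libraries. At steady state only Csf3r (17 UMIs) and Cxcr2 (2 UMIs) of the 12 were detected, so the 16 cells are not a set of known neutrophils. The part of neutrophils in the Mmp9 level was not tested.

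Mmp8, the neutrophil collagenase, was scarce outside day 1. It had 2 UMIs at steady state, 143 at day 1 and 3 at day 5, that is 1.23, 18.0 and 0.545 CPM. The day 1 level was 14.6-fold higher than at steady state (3.97 to 122), and the day 5 level was 32.9-fold lower than at day 1 (11.0 to 162). Both steady-state UMIs came from 1 cell, which also had a neutrophil marker UMI, so the ratio to steady state rests on that cell. The intervals of day 5 and steady state overlap. Of the day 1 UMIs of Mmp8, 14.7% lay in cells with a neutrophil marker UMI, cells that made up 9.38% of the library and were deeper, with 3382 UMIs in the median cell against 2491 in the other cells.

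Mmp12, macrophage elastase, was at 0 at steady state and had 130 UMIs at day 1 and 35 at day 5, or 16.3 and 6.36 CPM. With 0 replaced by 3 counts, the bound used here, its day 1 level was 8.84-fold higher than at steady state. The exact 95% lower limit of that ratio was 7.09-fold. Few cells carried it: 36 of 2793 cells at day 1 had a UMI (1.29%), 5 of those cells held 53.8% of the UMIs and the highest cell had 31. Without the 5 highest cells of each library the log2 bound was 2.03 in place of 3.14, and at 7.53 CPM at day 1 the gene was no longer called higher. Of the day 1 Mmp12 UMIs, 62.3% lay in the 511 cells with at least 2 UMIs of fibroblast or Schwann cell markers, which were deeper (3750 UMIs in the median cell, against 2242 in the others). Among the 2282 cells with at most 1 such UMI the log2 bound was 1.76 and the level 8.20 CPM, again under the minimum, so that 6 of the 10 genes were called higher. Of these markers Gsn had 1755 and Pmp22 304 UMIs at day 1, against 80 for Dcn and 0 for Pdgfra and Sox10. The 511 cells are therefore not a set of known fibroblasts or Schwann cells. The part of other cell types in the Mmp12 level was not tested.

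Mmp14 encodes a metalloprotease anchored in the cell membrane that cuts collagen at the cell surface and activates the precursor of gelatinase A. It was at 0 at steady state, at 53.9 CPM (48.9 to 59.2) at day 1 and at 34.0 CPM (29.3 to 39.2) at day 5, from 0, 429 and 187 UMIs. With 0 replaced by 3 counts, day 1 was 29.2-fold and day 5 18.4-fold higher than steady state. The exact 95% lower limits of these ratios were 23.6-fold and 14.8-fold. The day 5 level was 1.58-fold lower than at day 1 (1.33 to 1.89), the smallest difference between these libraries among the 10 genes, and 9.88% of day 1 cells and 6.05% of day 5 cells had a UMI.

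Mmp19, a secreted metalloprotease that cuts basement membrane components, had 5, 724 and 153 UMIs. These correspond to 3.08 CPM at steady state, 90.9 CPM at day 1 and 27.8 CPM at day 5, with intervals that do not overlap. It was 29.6-fold higher at day 1 than at steady state (12.6 to 91.3) and 9.04-fold higher at day 5 than at steady state (3.79 to 28.2). Cells with an Mmp19 UMI made up 0.696%, 14.4% and 4.49% of the libraries.

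Adam8, a membrane protease of leukocytes that sheds cell-surface proteins, had 5.54, 159 and 31.6 CPM, from 9, 1264 and 174 UMIs. It was 28.7-fold higher at day 1 than at steady state (15.1 to 62.8), 5.71-fold higher at day 5 than at steady state (2.94 to 12.7) and 5.02-fold lower at day 5 than at day 1 (4.28 to 5.91). More cells had a UMI of it at day 1 than of any other metalloprotease of the set: 26.4%, against 0.696% at steady state and 6.29% at day 5. All 9 steady-state UMIs came from 5 cells, so the ratios to steady state rest on few molecules.

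The 2 metalloprotease inhibitors went opposite ways. Timp1, an inhibitor that cells make in response to injury and cytokines, had 1, 1302 and 77 UMIs, or 0.615, 164 and 14.0 CPM. The ratio of day 1 to steady state was 266 with an interval of 47.6 to 10504, and the day 5 level was 11.7-fold lower than at day 1 (9.28 to 14.9). Timp2, which blocks metalloproteases and at low levels helps Mmp14 activate gelatinase A, had 945, 131 and 391 CPM from 1536, 1043 and 2149 UMIs. It was 7.22-fold lower at day 1 than at steady state (6.67 to 7.81), 2.42-fold lower at day 5 than at steady state (2.26 to 2.58) and 2.98-fold higher at day 5 than at day 1 (2.77 to 3.22).

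The make-up of the TIMP transcripts differed between the libraries. Of the UMIs of Timp1 and Timp2 together, Timp1 made up 0.0651% at steady state (exact Clopper-Pearson interval 0.00165 to 0.362), 55.5% at day 1 (53.5 to 57.5) and 3.46% at day 5 (2.74 to 4.30). The summed level of both was 946, 294 and 405 CPM. The 5 metalloproteases summed to 118, 215 and 78.5 CPM, and within them Mmp9 made up 96.3% at steady state, 16.9% at day 1 and 12.5% at day 5. Mmp19 took the greatest share at day 1, 42.2%, and Mmp14 at day 5, 43.3%. These are shares of captured molecules, not divided by transcript length, and capture can differ between transcripts.

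**Figure D2:**
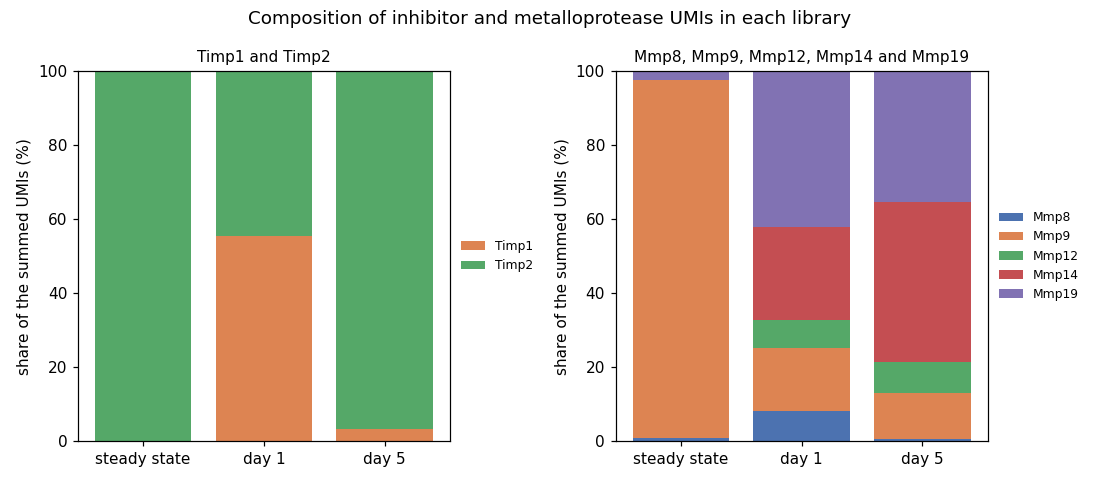
Shares of summed UMIs in percent (y axis) in the steady-state, day 1 and day 5 libraries (x axis), for the pair Timp1 and Timp2 (left) and for the 5 metalloproteases (right). Timp1 makes up 55.5% of the pair at day 1 and 3.46% at day 5, and Mmp9 makes up 96.3% of the metalloprotease UMIs at steady state.

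Slpi was at 0 of 1625316 UMIs at steady state, at 385 CPM (372 to 399) at day 1 from 3066 UMIs and at 13.6 CPM (10.7 to 17.1) at day 5 from 75 UMIs. With 0 replaced by 3 counts, day 1 was 209-fold and day 5 7.39-fold higher than steady state. The exact 95% lower limits of these ratios were 170-fold and 5.86-fold. Day 5 was 28.2-fold lower than day 1 (22.5 to 36.0). At day 1, 22.9% of cells had a Slpi UMI and 75 cells with 10 or more held 51.7% of all Slpi UMIs, with 119 in the highest cell. No steady-state cell of 718 had one, which allows a share of cells with a UMI of up to 0.418% by 3 counts and 0.512% by the exact interval, and does not limit the share of cells that express the gene below detection. Cells with a neutrophil marker UMI held 17.1% of the day 1 Slpi UMIs, at 571 CPM (523 to 622) against 361 CPM (347 to 375) in the other day 1 cells. Without the cells with a neutrophil marker UMI the counts of higher and lower genes were unchanged in all 3 comparisons.

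Cst3, one of the most abundant inhibitor transcripts of tissue macrophages, had 8141, 2301 and 4101 CPM from 13231, 18326 and 22554 UMIs. It was 3.54-fold lower at day 1 than at steady state (3.46 to 3.62). The day 5 level was 1.99-fold lower than at steady state (1.94 to 2.03), just short of the 2-fold rule, and with median-of-ratios scaling it was past the rule, at a log2 ratio of -1.11. Nearly every cell had a Cst3 UMI, 99.4%, 93.3% and 97.6% of cells, so its difference lay in the UMIs per cell: cells with 10 or more numbered 533 of 718, 621 of 2793 and 964 of 2051.

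At day 5, 8 of the 10 genes had at least 10 CPM in that library or at steady state, and of these 5 were higher than at steady state (Mmp14, Mmp19, Timp1, Adam8 and Slpi), 2 lower (Mmp9 and Timp2) and 1 between (Cst3). Over 6846 genes the shares were 10.0% higher and 11.0% lower, or 7.78% and 14.0% with median-of-ratios scaling. Mmp8 and Mmp12 were under the minimum level. Between day 5 and day 1, 1 of 10 was higher at day 5 (Timp2), 7 were lower and 2 lay within 2-fold (Mmp14 and Cst3), against 4.93% higher and 5.47% lower of 6653 genes, or 6.80% and 3.63% with median-of-ratios scaling. Both comparisons with steady state share that library, and both comparisons with day 5 share the day 5 library, so they are not independent of each other.

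**Figure D3:**
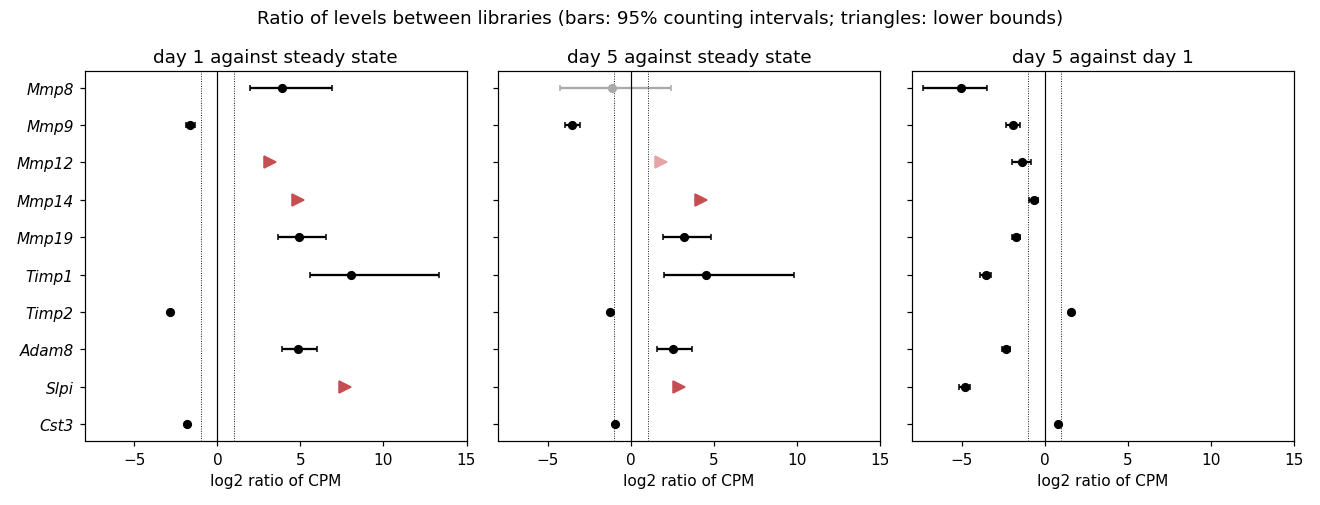
Log2 ratio of CPM (x axis) for each gene (y axis) in the 3 comparisons, with exact 95% intervals for counting error as bars. Triangles are ratios to a library at 0, with that 0 replaced by 3 counts. Pale symbols are genes under 10 CPM in both libraries, and dotted lines mark 2-fold. At day 1 against steady state 7 genes lie to the right of the 2-fold line and Mmp9, Timp2 and Cst3 to the left.

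Other genes of the same pathway were read from 9 lists with 110 genes found in the tables. Over all 7008 genes tested, 16.7% were higher and 14.8% lower at day 1 than at steady state. Of 15 other matrix metalloproteases, 1 reached 10 CPM in any library: Mmp13, a collagenase, with 11.7 CPM at steady state, 1.76 at day 1 and 1.09 at day 5. Of 5 other metalloprotease inhibitors and helpers, 1 did so, Pcolce, which speeds the cutting of procollagen, at 16.6, 1.63 and 4.00 CPM. Of 13 other ADAM and ADAMTS proteases 5 passed the minimum, and at day 1 against steady state 0 were higher and 1 lower, Adam19, with 3.52 CPM at day 1 and 55.4 CPM at steady state (15.7-fold lower, 10.2 to 25.0). Adam17, the sheddase of tumour necrosis factor, had 20.3, 39.1 and 39.1 CPM, and Adam10 had 19.7, 35.8 and 34.0 CPM, so that neither reached 2-fold.

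Cystatins block the cysteine cathepsins, lysosomal proteases that can also act outside the cell, but not the aspartic protease Ctsd. Among 11 cathepsins and legumain, 4 were higher and 0 lower at day 1 than at steady state, against 16.7% and 14.8% of all genes tested. Ctsl was 7.80-fold higher (1943 CPM at day 1, 249 CPM at steady state), Ctsd 4.95-fold higher and Ctss 2.92-fold higher, and Ctsk, the collagen-cutting cathepsin of osteoclasts, had 35.5 CPM against 0. The median log2 ratio of these 11 genes was 0.58. Cstb, stefin B, an inhibitor of cathepsins inside the cell, was 8.98-fold higher at day 1 than at steady state (2603 CPM and 290 CPM) and 3.25-fold lower at day 5 than at day 1. Cst3 and Cstb, 2 inhibitors of one enzyme class, thus stood on opposite sides of 2-fold at day 1.

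Of 19 serpins and other serine protease inhibitors 8 passed the minimum at day 1 or steady state. Of these, 6 were lower at day 1, against 14.8% of all genes tested. Serpinf1 was 18.5-fold lower (3.77 CPM at day 1, 69.5 CPM at steady state), Serpinb6a 6.81-fold lower (40.8 CPM, against 278 CPM) and Serpinb8 2.68-fold lower. Wfdc17, which shares the whey acidic protein fold with Slpi, was present at every time, at 277, 417 and 599 CPM. Of 8 serine proteases on a further list, 2 reached 10 CPM: Prtn3, proteinase 3, had 1.85, 61.8 and 75.6 CPM, and Dpp7 had 38.1, 19.6 and 26.4 CPM. Neutrophil elastase, Elane, had 6 UMIs at day 1 and 0 at steady state.

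Several matrix proteins and receptors that bind the enzymes were higher at day 1. Of 8 matrix genes past the minimum, 6 were higher and 1 lower at day 1 than at steady state, against 16.7% and 14.8% of all genes tested. Spp1, osteopontin, had 8178 CPM at day 1 against 14.2 CPM at steady state, Fn1, fibronectin, 1084 against 4.92 CPM, Thbs1, thrombospondin 1, 893 against 1.85 CPM, and Vcan, versican, 64.2 against 0 CPM. Of 8 activators and receptors past the minimum 4 were higher and 0 lower: Plaur, the urokinase receptor, was 9.26-fold higher, Cd44, the hyaluronan receptor that docks Mmp9, 4.20-fold, and Itgb2 and Lrp1, the integrin beta chain of leukocytes and the uptake receptor for protease-inhibitor complexes, 2.40-fold each. At day 5 against steady state the 7 matrix genes past the minimum had 3 higher and 1 lower, against 10.0% and 11.0% of all genes tested.

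To separate the make-up of a library from the level in like cells, the cells of all libraries were clustered on 2000 variable genes that left out the 10 genes and all list genes. This gave 10 clusters, of which 2 met the naming rule: cluster 1 was epineurial macrophage-like (Cd209f, Cd209g, Cd209d, Fcna) and cluster 3 cycling cell-like. Steady-state cells lay mostly in clusters 1 and 2 (195 and 492 cells), day 1 cells in clusters 9, 10, 7 and 5 (826, 826, 559 and 295 cells) and day 5 cells in clusters 6 and 4 (841 and 779 cells). With 1 library per time, a cluster mostly of 1 library may be that library rather than a cell type. Cluster 9 was led by Cxcl3, Ppbp, Slc7a11 and Spp1, cluster 10 by Pf4 and Ppbp, cluster 7 by the interferon-induced genes Rsad2 and Cxcl10, and cluster 5 by Ccl17, Ccr7 and Napsa, genes of dendritic cells, although 7 of the 8 monocyte markers were at least 2-fold higher in it than in the other clusters. Levels are given for the 14 pairs of library and cluster with at least 50 cells, as a description.

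Within uninjured nerve, Mmp9 and Timp2 were both higher in the epineurial macrophage-like cells than in cluster 2 (led by Lilra5, Hpgd and Mgl2). Mmp9 had 224 CPM in cluster 1 and 79.5 CPM in cluster 2 (ratio 2.81, 2.08 to 3.81), and a UMI in 25.6% and 9.76% of cells. Timp2 had 1789 and 684 CPM (2.61, 2.36 to 2.90), and Cst3 10290 and 7400 CPM (1.39, 1.34 to 1.44). The same cluster could be set side by side at day 5: Mmp9 had 160 CPM in 74 day 5 cells against 224 CPM in 195 steady-state cells, with a ratio of 0.716 (0.433 to 1.14). That value rests on 1 cell, which held 13 of the 23 day 5 UMIs: without it, an alternative chosen after the data were seen, the level was 71.3 CPM and the ratio 0.319 (0.148 to 0.612). It also turned with the clustering, at 232 CPM in day 5 cells against 221 CPM in steady-state cells at resolution 0.5, and 264 CPM in day 5 cells against 225 CPM in steady-state cells at resolution 2, so no direction is given. At resolution 1, Timp2 was 1.49-fold and Cst3 1.51-fold lower in the day 5 cells of cluster 1 than in the steady-state ones. The differences were smaller at the other resolutions. Timp2 had 1309 against 1801 CPM at resolution 0.5 and 1431 against 1802 CPM at resolution 2. Cst3 had 7981 against 10258 CPM and 8346 against 10353 CPM. In cluster 2 of resolution 1, with 51 day 5 and 492 steady-state cells, Timp2 was 1.37-fold lower (ratio 0.728, 0.525 to 0.987). The Cst3 ratio there was 0.995 (0.917 to 1.08). In the day 5 library Mmp9 was 25.0-fold higher in cluster 1 than in cluster 6 (160 and 6.41 CPM, 13.0 to 48.5), and the 74 cells of cluster 1, 3.61% of the library, held 42.6% of its Mmp9 UMIs. Without the 1 cell with 13 UMIs the ratio was 11.1 (4.62 to 25.1) and the share 24.4%.

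**Figure D4:**
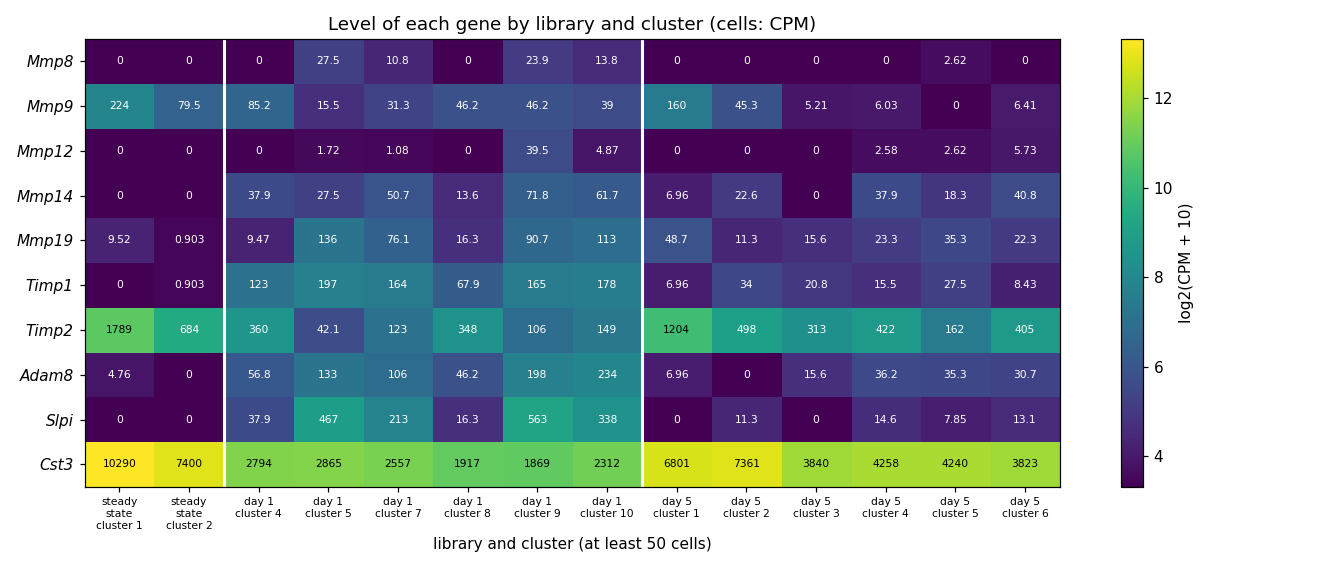
CPM of each gene (rows, values printed) in the 14 pairs of library and cluster with at least 50 cells (columns), coloured by log2(CPM + 10); white lines part the steady-state, day 1 and day 5 libraries. Mmp9 is at 160 CPM in cluster 1 at day 5, 13 of its 23 UMIs from 1 cell, and at 224 CPM in cluster 1 at steady state, and Slpi is at 563 CPM in day 1 cluster 9 and 16.3 CPM in day 1 cluster 8.

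At day 1 the genes were spread unevenly over the clusters. Slpi had 563 CPM in cluster 9, 467 in cluster 5, 338 in cluster 10 and 213 in cluster 7, but 37.9 CPM in cluster 4 and 16.3 CPM in cluster 8, from 4 and 6 UMIs. A Slpi UMI was found in 31.7% of cluster 9 cells and in 5.04% of cluster 8 cells, whose median cells had 3486 and 2783 UMIs. No cell type known to lack these genes was present in numbers that could measure free RNA, so the cluster 8 share is the nearest yardstick at day 1. Of the 130 day 1 UMIs of Mmp12, 119 (91.5%) lay in cluster 9. Mmp8 had 27.5 CPM in cluster 5 and 23.9 CPM in cluster 9, and 0 UMIs in clusters 4 and 8. The upper limits of these 0 counts were 34.9 CPM in cluster 4 and 10.0 CPM in cluster 8. The 0 in cluster 4 therefore does not set it apart from clusters 5 and 9. Mmp14 was highest in cluster 9 (71.8 CPM, 62.5 to 82.0) and cluster 10 (61.7 CPM, 48.6 to 77.2), whose intervals overlap, and lowest in cluster 8 (13.6 CPM).

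Timp1 had 164 to 197 CPM in clusters 5, 7, 9 and 10 and 67.9 CPM in cluster 8. In cluster 4 it had 123 CPM (65.6 to 211) from 13 UMIs, an interval that overlaps those of clusters 5, 7, 9 and 10. Timp2 was highest in clusters 4 and 8, at 360 and 348 CPM, and lowest in cluster 5, at 42.1 CPM (31.1 to 55.6). Timp1 made up 82.4% of the Timp1 and Timp2 UMIs in cluster 5 (77.4 to 86.7), 60.8% in cluster 9 and 57.1% in cluster 7. Its share was 54.3% in cluster 10, 25.5% in cluster 4 (14.3 to 39.6) and 16.3% in cluster 8 (10.9 to 23.2). Mmp19 was highest in cluster 5 at 136 CPM (115 to 159) and cluster 10 at 113 CPM (94.8 to 133), and Adam8 in cluster 10 at 234 CPM (208 to 262) and cluster 9 at 198 CPM (182 to 214). Mmp9 at day 1 was highest in cluster 4, at 85.2 CPM (39.0 to 162) from 9 UMIs, and lowest in cluster 5, at 15.5 CPM (9.16 to 24.4) from 18 UMIs.

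At resolution 1, cluster 5 held 295 day 1 and 188 day 5 cells of similar depth, so both times could be set side by side in it. Slpi was 59.5-fold lower at day 5 than at day 1 there (7.85 and 467 CPM, 27.2 to 163), Timp1 7.15-fold lower, Mmp19 3.84-fold lower and Adam8 3.77-fold lower. Timp2 was 3.86-fold higher at day 5 (162 and 42.1 CPM, 2.75 to 5.49) and Cst3 1.48-fold higher. In cluster 4, with 779 day 5 and 73 day 1 cells, Timp1 was 7.94-fold lower at day 5 (ratio 0.126, 0.0583 to 0.280) and Cst3 1.52-fold higher, but the Slpi ratio was 0.387 (0.126 to 1.58, from 17 and 4 UMIs), that of Timp2 1.17 (0.842 to 1.68) and that of Mmp19 2.46 (0.405 to 101, from 27 and 1 UMIs), with intervals that span 1. Whether the ratios differ between clusters 5 and 4 was not tested. Clusters 7, 8 and 11 of resolution 2 also held both times, and which of them took cluster 5 cells was not examined. Slpi and Timp1 were lower and Timp2 higher at day 5 in each, Timp2 at 104 against 66.5 CPM in cluster 8. Mmp19 was higher at day 5 in cluster 7 (83.98 against 55.6 CPM, 14 and 27 UMIs) and lower in clusters 8 and 11. Adam8 was lower at day 5 in clusters 7 and 8, but had 44.7 against 40.9 CPM in cluster 11. The fold values above are those of resolution 1.

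Co-detection asks whether 2 of the genes were found in the same cell more often than their shares of cells give. The number of cells with both was divided by the number given by the shares within 10 bins of cells by total UMIs, for pairs with at least 5 cells by the shares. Of 45 pairs, 5 could be given at steady state, 42 at day 1 and 18 at day 5. At day 1 the median over pairs was 0.990, with 5 pairs whose 95% interval lay above 1 and 4 whose interval lay below 1, and intervals were not adjusted for the number of pairs. The median includes the pairs with Cst3, which 93.3% of day 1 cells had, so that their ratios are held near 1. Because cells of different clusters differ in both genes, the same was done within clusters, a choice made after the data were seen.

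The pair Mmp8 and Slpi was found together in 36 day 1 cells, where the shares give 20.9 (ratio 1.72, 1.20 to 2.38), and the ratio within clusters was 1.56 (1.10 to 2.16). Adam8 and Slpi shared 229 cells, where the shares give 184 (1.24, 1.09 to 1.42), and 1.18 (1.03 to 1.34) within clusters. Mmp19 and Adam8 shared 158 cells against 127 (1.24, 1.06 to 1.45), and 1.21 (1.03 to 1.41) within clusters. Timp1 and Slpi, found in 19.7% and 22.9% of day 1 cells, shared fewer cells than their shares give: 112 against 137 (0.820, 0.675 to 0.987), and 0.795 (0.654 to 0.956) within clusters. Timp1 and Timp2 shared 92 cells against 120 (0.769, 0.620 to 0.943), but within clusters the interval reached 1 (0.820, 0.661 to 1.01). The intervals of Mmp19 with Timp1, Slpi and Timp2 and of Timp2 with Adam8 likewise included 1 within clusters. Few cells carried many of the genes at once: after thinning to 1000 UMIs, and leaving out Timp2 and Cst3, 1 or more of the other 8 genes was found in 44.6% of day 1 cells and 2 or more in 10.7%.

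**Figure D5:**
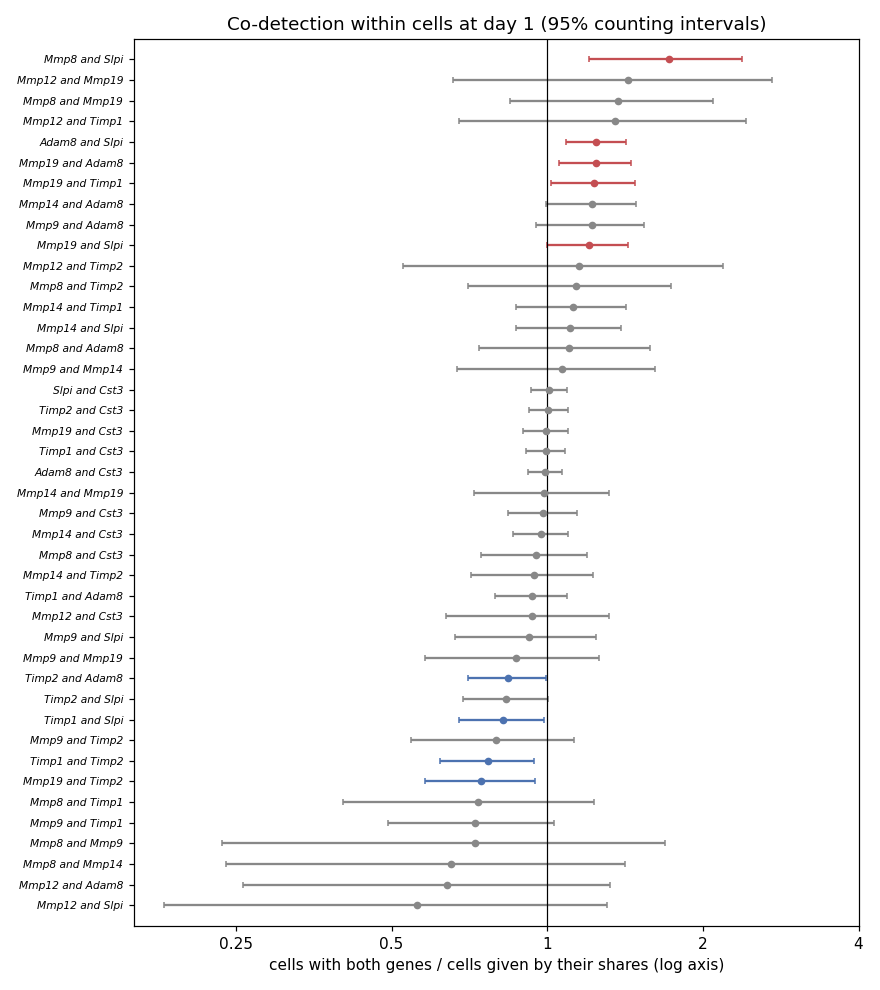
Ratio of day 1 cells with a UMI of both genes to the number given by the shares within 10 depth bins (x axis, log scale), for the 42 pairs with at least 5 cells by the shares (y axis); lines are 95% intervals for the counting error of the observed number. Red marks intervals above 1, with Mmp8 and Slpi highest at 1.72, and blue intervals below 1, among them Timp1 and Timp2 at 0.769.

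At day 5 the pair Mmp14 and Mmp19 was found together in 14 cells, where the shares give 6.72 (ratio 2.08, 1.14 to 3.50), whereas at day 1 the ratio of this pair was 0.987 (0.723 to 1.32). The difference between the days was not tested. At steady state the 5 pairs that could be given had ratios of 1.00 to 1.05, and all 5 intervals included 1. All but Mmp9 and Timp2 (1.05, 0.816 to 1.33) were pairs with Cst3. A Cst3 UMI was found in 714 of 718 cells, so the ratios of its pairs could hardly leave 1 and tell nothing of association.

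Genes with the most similar pattern were found by Pearson correlation of log2(CPM + 10) over the 14 sums, which share libraries, so that the values are descriptions with no p. Nearest to Timp2 were Igfbp4 (0.958), Serpinb6a, Folr2, Fcgrt and Gas6, and nearest to Cst3 were Ptp4a2 (0.940), Cyp27a1, Sepp1, Csf1r and Lifr. For Mmp9 they were F13a1 (0.916), Fkbp1a, Bin1, Rgl1 and Ccl24. The genes nearest to Adam8 were Cstb (0.962), Aprt, Mif, Prelid1 and Tpi1, and those nearest to Slpi were Ankrd37 (0.943), Pdpn, Esd, Ctsl and Prdx6. For Timp1 they were Cyfip1 (0.930), Gm10094, Ero1l, Arg1 and Chil3, for Mmp14 Gla (0.955), Id2, Hilpda, Ctsl and Rnf149, and for Mmp19 F10 (0.897), Bbip1, Anxa2, Prdx5 and Mkrn1. Mmp8 and Mmp12 had under 50 CPM in every library and were not used here.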

How the data were processed

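Single-cell RNA was measured in 3 libraries, 1 per time point. The deposited tables hold whole-number UMI counts per gene and cell, not normalized; the labels give 10x Genomics v1 as the method. Cell Ranger 2.0.2 and the build mm10 come from the submitters' processing notes, which do not say how free RNA was treated. Microarray and bulk samples were not analysed here.

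Cells were kept with at least 200 genes and at most 10% mitochondrial UMIs (6 of 5586 removed). Scrublet in scanpy 1.11.5 called 18 of 5580 cells doublets (0.323%), too few to be relied on, so doublets remain possible. Libraries shared 2, 3 and 11 barcodes. UMIs were summed per library and compared as CPM ratios with exact conditional binomial intervals. Clustering used the Leiden algorithm at resolution 1 (python-igraph 0.11.9) with 30 components and 15 neighbours. A deposited table that pools the libraries (97.5% of the UMIs) served as an alternative. The scripts were tested on simulated data.

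The genes, lists and comparisons were chosen with earlier results of these data known. All 10 genes are named; from each list up to 4 genes of at least 50 CPM that differed most in a comparison, plus some named after their values were seen (Mmp13, Pcolce, Adam10, Adam17, Ctsk, Dpp7, Elane); and the 5 nearest genes by correlation. One gene of the serine protease inhibitor list is not reported here.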

Additional observations from a re-analysis of the deposited data

How the results depend on the processing

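Of the 80 recomputed counts, 77 stayed within 1.5 times the value reported. Of the 300 recomputed log2 ratios of single genes 268 stayed within the reported interval and 32 moved out of it. Among ratios reported as at least 2-fold, 0 changed direction, and smaller ratios were not checked for this. Of the 32, 11 came from leaving out cells with fibroblast or Schwann markers and 8 from leaving out the 5 highest cells. Median-of-ratios scaling gave 6, the dendritic marker cut 5 and equal weight per cell 2. The other settings changed the cells or UMIs used less. With a minimum of 50 CPM, 0 genes were higher at day 5 than at steady state in place of 5, and 4 were lower at day 5 than at day 1 in place of 7, because fewer genes were tested. Within clusters 4 co-detected pairs had intervals that left out 1, in place of 9. Median-of-ratios scaling moved the median log2 ratio of all genes at day 1 against steady state to -0.19, from 0.12, and Cst3 at day 5 against steady state to -1.11. Mmp12 depended on few cells (log2 bound at day 1 of 2.03 without its 5 highest cells, 1.76 in cells with few fibroblast or Schwann markers), and in both cases it was under 10 CPM, which left 6 genes higher at day 1 in place of 7. For Adam8 at day 1 against steady state the log2 value was 6.35 without the 5 highest cells of each library, in place of 4.84. Steady state then has 0 UMIs, replaced by 3 counts. Leaving out a dendritic cell-like cluster gave no value, since no cluster took that name; leaving out cells with 2 or more dendritic marker UMIs was added after the data were seen and kept all counts within 1.5 times. No paired analysis was possible because there was 1 library per time point, which also leaves no replicate to leave out. Depth limits genes near 0 at steady state, where 3 counts are 1.85 CPM.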
